A study of Homo sapiens with 34 samples.

Results

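H1 human embryonic stem cells (ESCs) that carried a short hairpin RNA (shRNA) against ZNF503 were followed from day 0, the undifferentiated state, to day 2 of differentiation toward cardiomyocytes. The comparison rests on 4 of the 34 RNA sequencing libraries of the series, 2 at day 0 and 2 at day 2, which were taken by their labels, and on 1 row of read counts for each gene symbol. All cells were H1, an established line, grown in Essential 8 medium, infected with a lentivirus of the GIPZ type and selected with puromycin. For ZNF503 several vectors were tried and 1 line, the one with the best knockdown by real-time PCR, was used, so the shRNA group is 1 line. WT cells, set beside it, had an shRNA to GFP or a vector with no insert, and lines with shRNA against NKX2-5 or ZEB2 served as further references, each with 2 libraries a day. In every line differentiation began in Essential 8 medium without FGF2, TGFβ and insulin, with the GSK3β inhibitor CHIR99021 for the first 24 hours. The WNT inhibitor IWP2 was given from day 2, and the labels do not say whether the day 2 cells had received it.

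On the path from ESC to cardiac muscle, cells first pass through a state like the primitive streak, the site of gastrulation where mesoderm and endoderm arise. Inhibition of GSK3β stabilises β-catenin, and β-catenin with TCF/LEF factors and NODAL with SMAD2, SMAD3 and FOXH1 switch on the streak genes TBXT, MIXL1 and EOMES. Cells that go on to mesoderm then express MESP1 and TBX6, while cells that go on to endoderm express SOX17 and FOXA2. ZNF503 is a zinc finger protein of the NET family, which is known to repress transcription together with corepressors of the Groucho (TLE) family.

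Counts over 1 row per gene summed to 44453543 and 74263191 in the ZNF503 shRNA libraries of day 0 and to 87850810 and 20897109 in those of day 2. In WT they were 38772103 and 39310365 at day 0 and 28272228 and 14630405 at day 2. Levels are given as CPM, the counts of a gene in 1e6 counts of its library, scaled with TMM factors, and are not divided by gene length, so they compare a gene across libraries and not genes with each other. Where a gene had no count, its true level could reach 3 counts, in ZNF503 shRNA cells 0.0404 and 0.0675 CPM in the day 0 libraries and 0.0342 and 0.144 CPM in the day 2 libraries. PCR copies of a molecule are counted as separate reads, so this limit and the intervals below describe counting error alone. The 2 libraries of each group differed by more than sampling noise (chi-square per gene 14.4 at day 0 and 13.8 at day 2, where counting alone gives about 1). The study calls them biological replicates, and nothing in the labels says how far apart the cultures were, so p-values measure the spread between these libraries.

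The markers of the labelled cells were high. Summed over 8 markers of undifferentiated ESCs, ZNF503 shRNA cells held 4536 and 4488 CPM at day 0 and 3302 and 3446 CPM at day 2, against 3290.05 and 3321 CPM in WT at day 2, where WT had started from 5327 and 5175 CPM. Summed over 7 markers of primitive streak and mesendoderm, they held 4.4 and 4.22 CPM at day 0 and 1062 and 1331 CPM at day 2, against 3396 and 3595 CPM in WT at day 2. Summed over the endoderm markers SOX17, FOXA2, HHEX and CXCR4, they held 9.06 and 8.15 CPM at day 0 and 42.3 and 60.1 CPM at day 2, against 213 and 231 CPM in WT at day 2. The 6 markers of cardiac progenitors and muscle, NKX2-5, ISL1, TBX5, MYH6, MYH7 and TNNT2, summed to between 2.07 and 5.26 CPM in all 4 libraries. Sums were 2.07 to 4.4 CPM over 4 neural markers, 0.0782 to 0.290 CPM over 4 trophoblast markers and 1.46 to 2.63 CPM over 6 markers of endothelium and blood, each lower at day 2 than at day 0. NEUROG2 and GATA1 had no count in any of the 4 libraries, and CGA, ELF5, CGB5, PECAM1, CDH5 and HBZ had 10 counts or fewer in each. These are bulk samples, in which fewer cells of a type and less RNA per cell cannot be told apart.

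ZNF503, the targeted gene, lies on chromosome 10 (GRCh37, 77157588 to 77161522) on the minus strand. Its counts in ZNF503 shRNA cells were 7 and 8 at day 0 and 89 and 39 at day 2, or 0.156 and 0.108 CPM at day 0 and 0.994 and 1.84 CPM at day 2. The day 2 libraries were both above the day 0 libraries. The log2 change was 3.35 (SE 0.54, adjusted p = 0.000277) by edgeR's quasi-likelihood test with Benjamini-Hochberg adjustment, which is the test behind every adjusted p below. WT cells held 4 and 4 counts at day 0 and 34 and 32 at day 2, in libraries of other depths. In CPM of the library total the 2 lines overlapped at day 2. At day 0, with few counts, both ZNF503 shRNA libraries were above both WT libraries. The change differed from that of WT by -0.48 (SE 0.80, adjusted p = 0.709) on the log2 scale. A knockdown that lowered both days alike would not alter this difference, so it cannot show whether the knockdown was present. The level in ZNF503 shRNA cells was not tested against that in WT. At day 6, which is not otherwise described, counts were 12 and 16 in ZNF503 shRNA cells and 201 and 388 in WT, or 0.618 and 0.639 against 8.31 and 9.06 CPM of the library total. The level was also low in NKX2-5 shRNA cells at day 6, with 0.586 and 0.885 CPM, so a low level there is not particular to the ZNF503 shRNA line.

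Between day 0 and day 2, 677 of 16809 genes tested (4.03%) were called in ZNF503 shRNA cells, where a call asks for a 4-fold change and a false discovery rate (FDR) of 10%. Of these 402 (2.39%) were higher and 275 (1.64%) lower at day 2. In the sections on gene lists, "rose" and "fell" denote genes past 5% FDR with no fold threshold, of which there were 5317 (31.6%), 2503 (14.9%) higher and 2814 (16.7%) lower. The shares 14.9% and 16.7% are the backgrounds for every count of list genes that rose or fell. The median log2 change over all genes tested was 0.00, printed to 2 decimals. DESeq2, a second test, called 649 genes.

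The 10 largest rises, among called genes with a mean of at least 1 CPM and no overlap between days, were those of DKK4, GATA6, CSGALNACT1, CER1, LINC01124, ASB5, IL33, SP5, FOXA2 and GATA6-AS1. DKK4, a secreted inhibitor of WNT signaling, had 0.0446 and 0.0135 CPM at day 0 and 121 and 175 CPM at day 2, which is 2 counts and 1 count at day 0 and 10848 and 3723 counts at day 2. From so few counts at day 0 the ratio of the days was 5213 (95% interval 1784 to 25283). CER1, which encodes the NODAL and BMP antagonist Cerberus, had 0.201 and 0.189 CPM at day 0 and 609.6 and 731 CPM at day 2, and its log2 change was 11.73 (SE 0.20, adjusted p = 4.05e-14). GATA6, a GATA factor of endoderm and cardiac progenitors, had no count at day 0 and 9.16 and 14.9 CPM at day 2, at least 477-fold higher. Of CSGALNACT1, an enzyme of chondroitin sulfate synthesis, day 0 also held no count and day 2 9.89 and 13.6 CPM, at least 465-fold higher. The lower bounds were 183-fold for the noncoding RNA LINC01124, 163-fold for ASB5, 147-fold for the cytokine gene IL33 and 77.3-fold for GATA6-AS1, each with no count at day 0. GATA6-AS1 lies antisense to GATA6 and the strand used in counting is not given in the sources used here, so reads of both cannot be told apart.

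The 10 largest falls were those of GAD2, DPPA3, SLC17A6, IDO1, MEGF11, SORBS2, ERG, PTPRB, SNTG1 and INHBE. PTPRB, a receptor tyrosine phosphatase, and SORBS2, an adaptor of actin and adhesion sites, were the most abundant of them at day 0, with 69.6 and 92.9 CPM and 48.9 and 49.2 CPM. At day 2 PTPRB had 3.82 and 3.86 CPM and SORBS2 2.32 and 1.46 CPM, log2 changes of -4.42 (SE 0.23, adjusted p = 4.67e-09) and -4.60 (SE 0.19, adjusted p = 3.66e-10). IDO1, which breaks down tryptophan, went from 10.4 and 8.45 CPM to 0.313 and 0.188 CPM. DPPA3, a germ line and early embryo gene, went from 2.48 and 3.28 CPM to 0.0335 and 0 CPM, 3 counts in the day 2 libraries together, a ratio of 109.9 (95% interval 37.3 to 536). GAD2, which makes GABA from glutamate, had 1.18 and 1.09 CPM at day 0 and no count at day 2, at least 42.0-fold lower. In WT each of these 10 genes was also lower at day 2 than at day 0, with log2 changes from -7.79 to -2.43 in which the former rests on no count at day 2.

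**Figure D1:**
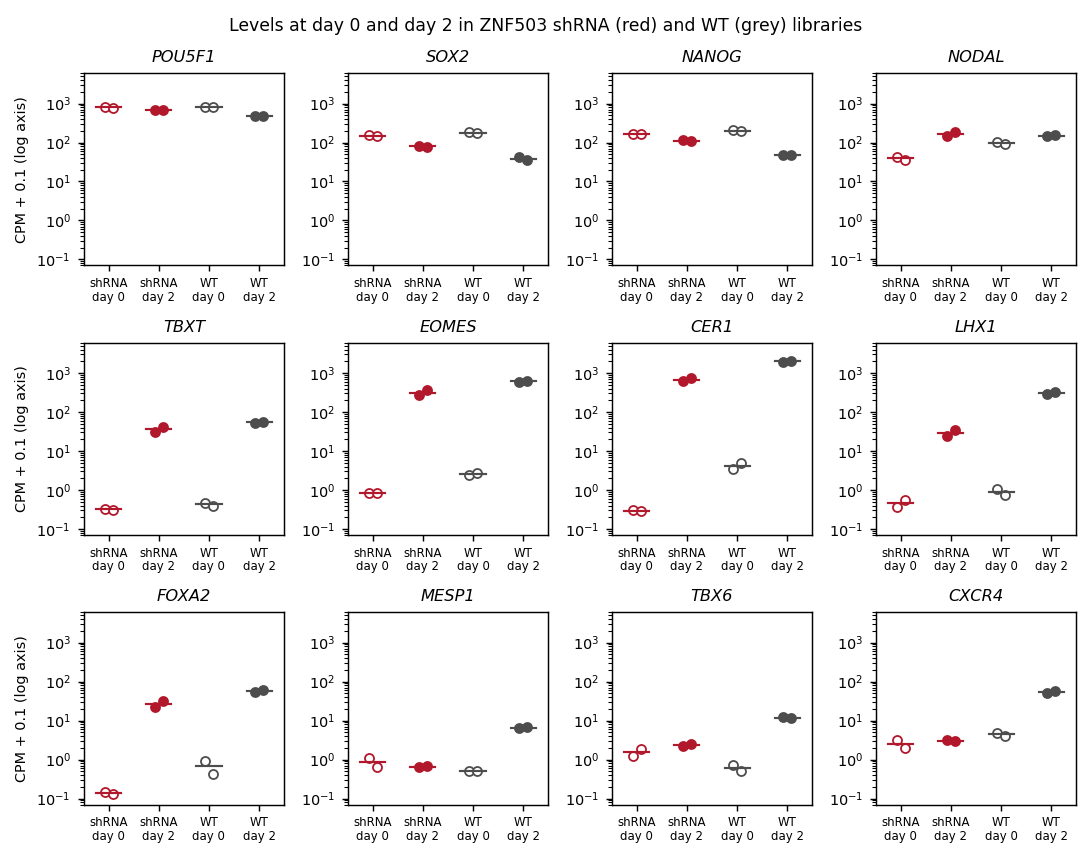
CPM plus 0.1 of 12 genes on a log axis in the 2 libraries (points) of each group, with bars at the means; red marks ZNF503 shRNA cells and grey marks WT, open points day 0 and filled points day 2. In ZNF503 shRNA cells TBXT, EOMES, CER1, LHX1 and FOXA2 lie far higher at day 2 than at day 0, while MESP1, TBX6 and CXCR4 lie at a like level on both days and are high in WT at day 2.

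Most streak genes rose. Of 26 streak and mesendoderm genes tested, 22 rose and 1 fell, 17 were called higher (background 2.39%), and the median log2 change was 3.13. TBXT, the T-box factor that marks the streak, had 0.223 and 0.216 CPM at day 0 and 30.1 and 41.2 CPM at day 2, a log2 change of 7.31 (SE 0.29, adjusted p = 2.7e-10). EOMES, a T-box factor needed for endoderm and cardiac mesoderm, had 0.758 and 0.756 CPM at day 0 and 270.2 and 362 CPM at day 2, a log2 change of 8.69 (SE 0.22, adjusted p = 5.32e-12). The homeobox gene MIXL1 had 0.692 and 0.729 CPM at day 0 and 36.9 and 55.6 CPM at day 2. All 3 genes were at or below 1 CPM in both libraries of day 0 and above 30 CPM in both of day 2. In WT the log2 changes were 7.36 for TBXT, 7.94 for EOMES and 5.61 for MIXL1. These values compare folds and not levels. Summed over 7 streak markers, which include these 3 genes and CER1, ZNF503 shRNA cells were below WT on both days. The sums were 4.4 and 4.22 CPM against 11.0 and 12.9 CPM at day 0, and 1062 and 1331 CPM against 3396 and 3595 CPM at day 2. The differences of the changes, ZNF503 shRNA minus WT, were -0.04 (SE 0.64, adjusted p = 0.976) for TBXT and 0.39 (SE 0.43, adjusted p = 0.547) for MIXL1. Across the list 10 differences from WT were positive and 9 negative past 5%, with 7 and 3 of them called and a median of 0.49. Over all genes 13.6% were positive and 11.4% negative past 5%, and 1.27% and 2.13% were called.

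Among the genes of the list that rose less than in WT were GSC, LHX1 and CHRD. GSC, an organizer homeobox gene, had 2.12 and 1.69 CPM at day 0 and 35.6 and 37.9 CPM at day 2 in ZNF503 shRNA cells and 70.3 and 65.1 CPM in WT at day 2, and the difference of the changes was -0.96 (SE 0.23, adjusted p = 0.00513). LHX1, a LIM homeobox gene, had 0.268 and 0.445 CPM at day 0 and 24.1 and 34.9 CPM at day 2, far above day 0 but also far below the 286 and 326 CPM of WT at day 2. The difference of its change was -2.29 (SE 0.57, adjusted p = 0.0071), which did not pass the threshold without day 0 replicate 2 of ZNF503 shRNA cells (-1.81, adjusted p = 0.176). The BMP antagonist CHRD rose by 4.85 on the log2 scale, with a difference of -1.62 (SE 0.39, adjusted p = 0.00542) from WT. WNT3A, with 0.223 and 0.108 CPM at day 0 and 0.938 and 0.989 CPM at day 2, rose in ZNF503 shRNA cells, whereas WT went from no count to 3.80 and 3.60 CPM. Its rise missed 5% without day 0 replicate 2 (adjusted p = 0.0862) and without day 2 replicate 1 (adjusted p = 0.05). NOG, another BMP antagonist, was the 1 gene of the list that fell, from 0.714 and 0.837 CPM to 0.112 and 0.188 CPM. NKX1-2, with 15.5 and 11.0 CPM at day 0 and 9.23 and 8.38 CPM at day 2, did not pass 5% (log2 change -0.59, SE 0.28, adjusted p = 0.127), though its libraries did not overlap and it passed in 3 alternative fits, with adjusted p from 0.0172 to 0.0241. In WT it dropped from 19.3 and 15.9 CPM to 0.999 and 1.16 CPM.

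CER1, SP5 and FOXA2 had larger fold changes in ZNF503 shRNA cells than in WT and yet lower levels at day 2. CER1 in WT had 3.37 and 4.83 CPM at day 0 and 1960.1 and 2014 CPM at day 2, FOXA2 0.843 and 0.338 CPM at day 0 and 55.5 and 61.3 CPM at day 2 and SP5 0.448 and 0.208 CPM at day 0 and 78.3 and 81.5 CPM at day 2. At day 0 all 3 genes were lower in both ZNF503 shRNA libraries than in either WT library, and the same held at day 2, SP5 included. The differences of the changes were 2.82 (SE 0.35, adjusted p = 2.08e-05) for CER1, 2.90 (SE 0.73, adjusted p = 0.0079) for FOXA2 and 2.25 (SE 0.60, adjusted p = 0.0111) for SP5. Without WT day 0 replicate 1 the SP5 difference was 1.60 (adjusted p = 0.148) and no longer past the threshold, and without day 0 replicate 2 of ZNF503 shRNA cells its adjusted p was 0.0642. The FOXA2 difference had an adjusted p of 0.0802 without the former library and 0.0926 without the latter. For GATA6, which had 0.448 and 0.623 CPM at day 0 and 71.6 and 67.2 CPM at day 2 in WT, the difference (adjusted p = 0.02) is set against a group at 0 counts and gives no size, and it was not called without day 0 replicate 2 of ZNF503 shRNA cells (adjusted p = 0.137).

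In the NODAL pathway the ligand rose, while the changes of its feedback inhibitors LEFTY1 and LEFTY2 did not pass 5%. LEFTY1 started higher in WT and dropped there to below its level in ZNF503 shRNA cells at day 2. Of 23 pathway genes tested 7 rose (background 14.9%) and 6 fell (background 16.7%), with a median log2 change of 0.26. NODAL had 42.6 and 36.2 CPM at day 0 and 149 and 184 CPM at day 2, with no overlap between the days and a log2 change of 2.07 (SE 0.16, adjusted p = 3.7e-07). In WT it had 101 and 92.3 CPM at day 0 and 150.0 and 152 CPM at day 2, so that the lines were at like levels at day 2 after a higher start in WT. Its change was larger in ZNF503 shRNA cells by 1.43 (SE 0.21, adjusted p = 0.000127). CRIPTO, the coreceptor, rose from 417 and 445 CPM to 627 and 642 CPM. LEFTY1, an extracellular inhibitor of NODAL, had 18.3 and 12.3 CPM at day 0 and 17.4 and 19.6 CPM at day 2, and its near-identical neighbour LEFTY2 had 5.53 and 3.36 CPM at day 0 and 5.88 and 6.35 CPM at day 2. The days overlapped for LEFTY1 and not for LEFTY2. Neither passed 5%, with log2 changes of 0.26 (SE 0.24, adjusted p = 0.438) and 0.46 (SE 0.27, adjusted p = 0.222). In WT LEFTY1 dropped from 67.4 and 55.3 CPM to 9.79 and 10.4 CPM, and the differences of the changes were 2.88 (SE 0.32, adjusted p = 6.21e-06) for LEFTY1 and 2.89 (SE 0.36, adjusted p = 2.42e-05) for LEFTY2. The counting could split reads between these copies. FST, which binds activin, rose from 5.47 and 6.59 CPM to 53.5 and 61.0 CPM, more than in WT by 1.53 (SE 0.25, adjusted p = 0.000322). FOXH1, the DNA-binding partner of SMAD2, had 34.8 and 31.9 CPM at day 0 and did not pass 5% (log2 change 0.15, SE 0.13, adjusted p = 0.417), while in WT it went from 27.8 and 25.1 CPM to 60.6 and 66.9 CPM. SMAD7, an inhibitory SMAD, fell by 1.25 on the log2 scale.

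Many WNT target genes rose, and WNT receptors moved both ways. Of the 53 WNT pathway genes tested 20 rose (background 14.9%) and 9 fell (background 16.7%), and among 17 target or feedback genes 11 rose and 2 fell. Among 16 receptors 4 rose and 5 fell. Of 56 pathway genes tested against WT, 8 differences were positive and 14 negative past 5%, with a median of -0.31. Over all genes 13.6% were positive and 11.4% negative. Among target or feedback genes 4 differences were positive and 1 negative, and among receptors 4 and 7. The promoters of SP5, DKK1 and MIXL1 are printed because these genes rose from near 0 and their start regions hold the letters CTTTGA, the core of the site that TCF/LEF factors bind. They run from 250 bases before to 50 bases after the RefSeq start, 5′ to 3′ on the gene's strand, in GRCh38.p14, at chr2:170715087-170715386 for SP5, chr10:52314031-52314330 for DKK1 and chr1:226223414-226223713 for MIXL1, all on the plus strand. Capitals mark CTTTGA or its reverse complement TCAAAG.
SP5: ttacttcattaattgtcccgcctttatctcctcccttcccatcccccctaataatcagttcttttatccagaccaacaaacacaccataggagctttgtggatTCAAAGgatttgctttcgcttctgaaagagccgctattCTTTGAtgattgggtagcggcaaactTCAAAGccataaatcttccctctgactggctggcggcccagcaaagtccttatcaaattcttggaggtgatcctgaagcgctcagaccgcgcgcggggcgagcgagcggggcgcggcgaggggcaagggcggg
DKK1: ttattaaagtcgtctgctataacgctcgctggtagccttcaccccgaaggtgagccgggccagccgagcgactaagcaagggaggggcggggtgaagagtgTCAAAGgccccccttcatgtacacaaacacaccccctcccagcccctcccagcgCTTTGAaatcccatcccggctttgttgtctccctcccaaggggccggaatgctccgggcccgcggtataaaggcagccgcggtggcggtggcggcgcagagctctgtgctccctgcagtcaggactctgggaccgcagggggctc
MIXL1: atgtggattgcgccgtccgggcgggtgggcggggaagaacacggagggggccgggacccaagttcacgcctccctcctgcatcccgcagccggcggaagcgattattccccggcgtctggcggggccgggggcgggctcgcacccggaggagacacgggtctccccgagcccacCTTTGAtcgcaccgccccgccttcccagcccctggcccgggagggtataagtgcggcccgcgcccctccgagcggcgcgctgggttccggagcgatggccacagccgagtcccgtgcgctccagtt
The SP5 promoter holds 3 copies, the DKK1 promoter 2 and the MIXL1 promoter 1. On either strand these letters are in 3578 of 27305 RefSeq promoters of that length (13.1%) and in 1177 of 12770 promoters of genes tested (9.22%). Among genes called higher 41 of 290 hold them (14.1%), among genes called lower 20 of 195 (10.3%), among WNT target or feedback genes 4 of 11 and among streak genes 2 of 17. A match is a description of the letters and not a bound site, and promoters of TBXT, LEF1, EOMES and NODAL hold none in this window.

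SP5, a zinc finger gene that responds directly to WNT, had 0.0446 and 0.0540 CPM at day 0 and 55.5 and 66.9 CPM at day 2, a log2 change of 10.16 (SE 0.33, adjusted p = 3.49e-11). DKK1, a secreted WNT inhibitor and feedback target, had 0.0892 and 0.0270 CPM at day 0 and 4.69 and 9.09 CPM at day 2, a log2 change of 6.95 (SE 0.51, adjusted p = 1.76e-07). LEF1, which encodes a DNA-binding partner of β-catenin, had 1.47 and 1.09 CPM at day 0 and 20.0 and 22.9 CPM at day 2. In all 3 genes both libraries of day 2 were at least 10 times either library of day 0. WT reached 9.19 and 10.9 CPM of LEF1 at day 2. APCDD1, a membrane inhibitor of WNT, rose by 2.38, also more than in WT (difference 1.02, SE 0.21, adjusted p = 0.00179). AXIN2, a scaffold of the complex that degrades β-catenin, had 36.4 and 37.9 CPM at day 0 and 48.8 and 58.2 CPM at day 2 (log2 change 0.51, SE 0.13, adjusted p = 0.00921). Its rise did not pass 5% without day 0 replicate 1, day 0 replicate 2 or day 2 replicate 2, with adjusted p of 0.106, 0.0708 and 0.134. SFRP1, a secreted WNT antagonist, had 236 and 237 CPM at day 0 and 217 and 233 CPM at day 2 and did not pass 5%, while in WT it rose from 139.8 and 129 CPM to 428 and 447 CPM, a difference of -1.78 (SE 0.15, adjusted p = 4.78e-07). The ligand WNT3 rose from 5.69 and 3.94 CPM to 23.0 and 32.2 CPM.

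BMP and FGF genes moved in both directions. Of 36 BMP pathway genes tested 10 rose and 7 fell, and of 29 FGF pathway genes 8 rose and 8 fell, with medians of 0.15 and -0.05. Over all genes 14.9% rose and 16.7% fell. The ligand BMP2 had 1.81 and 1.27 CPM at day 0 and 4.15 and 5.60 CPM at day 2, below the 24.2 and 25.3 CPM of WT at day 2 in both libraries, and the difference of the changes was -1.81 (SE 0.30, adjusted p = 0.000287). BMP4 rose by 1.09 and in WT by 1.03. Of the BMP targets, MSX2 rose by 3.05 and ID1, with 44.1 and 33.6 CPM at day 0 and 22.2 and 16.6 CPM at day 2, fell. FGF4 and FGF17, ligands of the streak, rose from below 0.5 CPM to 26.9 and 32.5 CPM and 55.7 and 68.3 CPM. FGF1 had 0.0892 and 0.0270 CPM at day 0 and 2.00 and 2.87 CPM at day 2 (log2 change 5.45, SE 0.57, adjusted p = 5.66e-06) against 0.400 and 0.129 CPM in WT at day 2, and FGF8 had 2.19 and 2.75 CPM at day 0 and 8.27 and 5.51 CPM at day 2, where WT had 8.17 and 8.33 CPM at day 0 and 6.56 and 3.73 CPM at day 2. The differences of these changes were 3.58 (SE 1.46, adjusted p = 0.0813) for FGF1 and 2.14 (SE 0.45, adjusted p = 0.00214) for FGF8. That of FGF1 was called in 3 of 8 fits with 1 library left out, and its adjusted p reached 0.364 without WT day 0 replicate 1. FGF2, whose protein was withdrawn from the medium, had 113 and 117 CPM at day 0 and 108 and 116 CPM at day 2 with overlapping libraries, and WT dropped from 154 and 153 CPM to 54.5 and 48.5 CPM. That is a difference of 1.54 (SE 0.13, adjusted p = 4.38e-07). Most differences of the FGF list went the other way. Of 30 genes tested against WT, 4 differences were positive and 10 negative past 5%, with a median of -0.125. The shares over all genes were 13.6% positive and 11.4% negative. Of 6 FGF receptor genes 4 fell and none rose. FGFR4 went from 51.5 and 46.1 CPM to 8.99 and 8.10 CPM. DUSP6, a phosphatase that dampens ERK, fell from 442 and 485 CPM to 264 and 269 CPM.

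**Figure D2:**
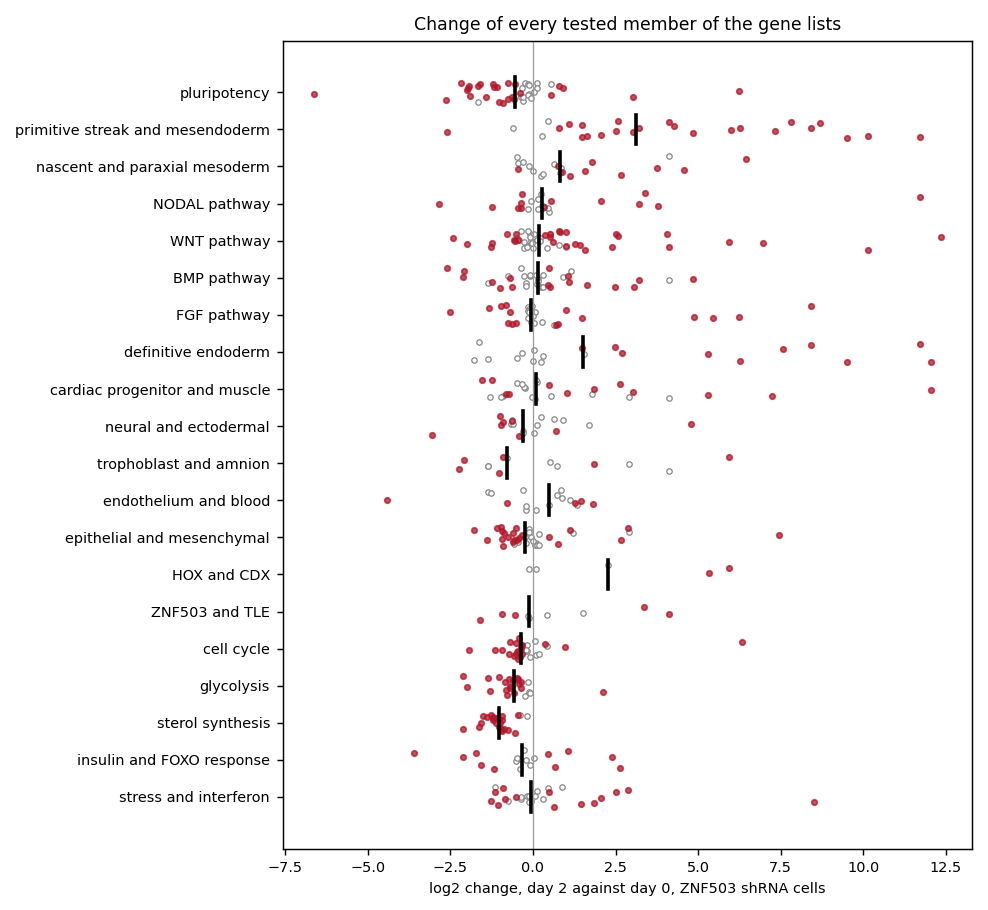
Log2 change from day 0 to day 2 in ZNF503 shRNA cells for every tested member (1 point each) of 20 gene lists, filled red past 5% FDR and open otherwise, with a black bar at each list's median. Streak and mesendoderm genes sit farthest to the right (median 3.13), and sterol synthesis genes all lie left of 0 (median -1.03).

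Many pluripotency genes fell. Of 41 tested, 5 rose and 21 fell, with a median log2 change of -0.55 against -1.26 in WT. Among the risers were KLF5, OTX2, FGF4 and CRIPTO. POU5F1 (OCT4) had 802 and 785 CPM at day 0 and 668 and 673 CPM at day 2, with both day 2 libraries below both day 0 libraries. Its log2 change was -0.25 (SE 0.10, adjusted p = 0.0681), which missed 5% here and passed in 6 alternative fits with adjusted p from 0.0148 to 0.0444. SOX2 fell from 152 and 145 CPM to 83.5 and 74.8 CPM, a log2 change of -0.92 (SE 0.12, adjusted p = 4.47e-05). NANOG fell from 164 and 167 CPM to 113 and 110.2 CPM, a log2 change of -0.58 (SE 0.11, adjusted p = 0.000822). In WT, SOX2 and NANOG ended at 41.2 and 34.7 CPM and 48.9 and 48.1 CPM, below both ZNF503 shRNA libraries. For the core factors the differences of the changes were all positive, with 0.54 (SE 0.12, adjusted p = 0.0031) for POU5F1, 1.34 (SE 0.14, adjusted p = 4.01e-06) for SOX2 and 1.48 (SE 0.11, adjusted p = 1.55e-07) for NANOG.

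Some genes of the undifferentiated state fell much further. THY1, a surface glycoprotein, went from 312 and 336 CPM to 52.2 and 52.1 CPM, and PODXL, the sialomucin that carries TRA-1 epitopes, from 866 and 899 CPM to 205 and 192 CPM. SOX3 and PRDM14 went from 10.8 and 9.31 CPM to 2.61 and 2.35 CPM and from 63.5 and 55.9 CPM to 16.05 and 14.9 CPM. POLR3G, a subunit of RNA polymerase III abundant in ESCs, fell from 442 and 474 CPM to 132 and 113 CPM, a log2 change of -1.91 (SE 0.12, adjusted p = 2.75e-08). In WT it fell to 31.3 and 23.0 CPM, and the difference was 2.39 (SE 0.17, adjusted p = 6.13e-08). DNMT3B, a DNA methyltransferase, and ZFP42 (REX1) fell by 1.43 and 1.09 on the log2 scale. OTX2, also a gene of epiblast and anterior streak, rose from 15.5 and 14.4 CPM to 121 and 127 CPM. Across the list 17 differences from WT were positive and 4 negative past 5%, where over all genes 25.0% passed, 13.6% positive and 11.4% negative.

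Many genes of nascent mesoderm had a smaller change than in WT. Of 21 tested 9 rose and 1, the Notch ligand gene DLL1, fell, and the median log2 change was 0.82. Of 22 tested against WT, where the medians were 0.84 in ZNF503 shRNA cells and 2.56 in WT, 11 differences of the changes were negative past 5% and 0 positive (shares over all genes 11.4% and 13.6%), and the median difference was -1.22. MESP1, the bHLH factor of the first cardiac mesoderm, had 1.03 and 0.540 CPM at day 0 and 0.536 and 0.565 CPM at day 2, with libraries of the 2 days at like levels. Its log2 change was -0.50 (SE 0.51, adjusted p = 0.496), while WT rose from 0.422 and 0.415 CPM to 6.23 and 6.62 CPM. The difference of the changes was -4.40 (SE 0.49, adjusted p = 7.07e-06). TBX6, a T-box factor of paraxial mesoderm, had 1.14 and 1.74 CPM at day 0 and 2.19 and 2.40 CPM at day 2, a log2 change of 0.63 (SE 0.33, adjusted p = 0.16), where WT had 0.606 and 0.415 CPM at day 0 and 12.3 and 11.3 CPM at day 2. The difference was -3.89 (SE 0.38, adjusted p = 1.59e-06). No day 2 library of ZNF503 shRNA cells came near the WT levels of either gene.

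The surface receptors APLNR, PDGFRA and CXCR4 were also below WT at day 2. Of 9 receptor and adhesion genes of the list, 6 differences of the changes from WT were negative past 5% and 0 positive (shares over all genes 11.4% and 13.6%). APLNR, the apelin receptor, had 0.134 and 0.270 CPM at day 0 and 4.33 and 6.40 CPM at day 2, higher at day 2 in both libraries, but WT reached 76.7 and 90.2 CPM. The difference of the changes was -3.49 (SE 0.59, adjusted p = 0.000376), and without day 0 replicate 2 of ZNF503 shRNA cells it was -2.81 (adjusted p = 0.0563). PDGFRA, a receptor of paraxial and cardiac mesoderm, had 2.70 and 2.69 CPM at day 0 and 33.8 and 40.4 CPM at day 2, where WT reached 404 and 418 CPM, a difference of -2.55 (SE 0.15, adjusted p = 1.81e-08). CXCR4, a chemokine receptor of mesoderm and endoderm, had 2.99 and 1.85 CPM at day 0 and 2.98 and 2.87 CPM at day 2 and overlapping days, with WT at 51.2 and 58.7 CPM at day 2 (difference -3.33, SE 0.26, adjusted p = 2.09e-07). SNAI2 rose from 0.0892 and 0.270 CPM to 1.27 and 1.32 CPM, and CDH2 (N-cadherin) from 142 and 139 CPM to 214 and 264 CPM with a difference of -1.11 (SE 0.16, adjusted p = 0.000108) from WT for CDH2. KDR, the VEGF receptor of cardiovascular mesoderm, had 261 and 246 CPM at day 0 and 199.8 and 216 CPM at day 2 and did not pass 5% (log2 change -0.29, SE 0.12, adjusted p = 0.0779), though it did in 4 alternative fits, with adjusted p from 0.00636 to 0.0431.

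Of 20 endoderm genes tested 10 rose and none fell, 9 were called higher (background 2.39%), and the median log2 change was 1.50. In the fit with WT, which tested 18 of them, the medians were 1.93 in ZNF503 shRNA cells and 3.45 in WT. Past 5% the differences were positive for 5 genes and negative for 5 (shares over all genes 13.6% and 11.4%), with a median of 0.19. SOX17, GATA4, PRDM1 and HHEX ended below WT. CER1, FGF17, FOXA2 and HHEX are on both this list and that of the streak. SOX17 had 0 and 0.0270 CPM at day 0 and 3.26 and 4.38 CPM at day 2, 2 counts in all at day 0, and WT reached 55.5 and 60.8 CPM. GATA4 had 0.0892 and 0.189 CPM at day 0 and 5.40 and 7.16 CPM at day 2, a log2 change of 5.30 (SE 0.29, adjusted p = 8.52e-09), and WT reached 21.1 and 24.2 CPM. For both genes the fold change did not differ detectably from that of WT, with differences of 0.37 (SE 0.81, adjusted p = 0.785) and 0.40 (SE 0.42, adjusted p = 0.577). For PRDM1, a zinc finger repressor, and HHEX, a homeobox gene of anterior endoderm, it did. PRDM1 had 0.357 and 0.310 CPM at day 0 and 1.88 and 2.59 CPM at day 2, where WT reached 18.7 and 19.2 CPM, a difference of -3.34 (SE 0.39, adjusted p = 1.07e-05). HHEX had 6.02 and 6.25 CPM at day 0 and 13.8 and 21.0 CPM at day 2, where WT reached 50.6 and 50.1 CPM, a difference of -2.05 (SE 0.26, adjusted p = 3.18e-05).

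Genes of later lineages moved in both directions, as did all genes (14.9% rose and 16.7% fell). Of 27 cardiac genes tested 8 rose (background 14.9%) and 4 fell (background 16.7%), 6 were called higher (background 2.39%) and none lower, with a median log2 change of 0.09, or 0.05 with genes against a group at 0 set at their bounds. The risers included GATA4 and GATA6, both also on the endoderm list, and, at low levels, TBX20, a T-box factor of the early heart, with 0.312 and 0.229 CPM at day 0 and 1.70 and 1.60 CPM at day 2, and MYL7, the atrial light chain, with 0.0446 and 0.108 CPM at day 0 and 0.715 and 0.706 CPM at day 2. The differences from WT were -2.66 (SE 0.56, adjusted p = 0.00234) for TBX20 and 3.34 (SE 0.76, adjusted p = 0.00383) for MYL7, the latter 4.19 without day 0 replicate 2 of ZNF503 shRNA cells. TBX1, MEF2C, MYOCD and TNNI3 fell, MEF2C from 5.06 and 4.39 CPM to 1.95 and 2.12 CPM. Of 19 neural and ectodermal genes 2 rose, SIX3 and DLX5, and 6 fell, among them SIX6, an eye field gene, from 29.7 and 23.7 CPM to 3.33 and 3.01 CPM. PAX7 had 9.79 and 7.88 CPM at day 0 and 12.3 and 15.2 CPM at day 2, which missed 5% (adjusted p = 0.0562) and passed in 4 alternative fits, at most at adjusted p = 0.0351. Its day 0 libraries stood well above the 0.105 and 0.441 CPM of WT, which reached 6.06 and 6.17 CPM at day 2. Of 13 trophoblast and amnion genes 2 rose, CDX2 and ISL1, and GATA2, TFAP2C, KRT7 and IGFBP3 fell, KRT7 from 3.41 and 3.75 CPM to 0.793 and 0.706 CPM. Of 17 genes of endothelium and blood RUNX1, SOX18 and TEK rose and TAL1 and ERG fell, counts near the shares over all genes. TEK, the angiopoietin receptor, rose from 0.714 and 0.742 CPM to 2.66 and 2.45 CPM and dropped in WT from 4.64 and 4.75 CPM to 1.43 and 1.93 CPM (difference 3.33, SE 0.39, adjusted p = 1.23e-05). Of 42 HOX and CDX genes 5 had enough counts to be tested, of which 2 rose, CDX2 among them, and 30 were at or under 3 counts in each of the 4 libraries.

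Many epithelial genes fell, and mesenchymal genes moved both ways. Of 20 epithelial genes 11 fell (background 16.7%) and 1, the desmocollin DSC2, rose (background 14.9%), with a median of -0.45. Keratin 8 (KRT8) went from 222 and 228 CPM to 109 and 105 CPM. Of 17 mesenchymal genes 5 rose and 5 fell. Of 16 mesenchymal genes tested in the fit with WT, 11 rose and 2 fell in WT. Past 5%, 1 difference from WT was positive and 6 were negative (shares over all genes 13.6% and 11.4%), with a median of -0.64. The repressors of the epithelial state ZEB2 and ZEB1 rose, ZEB2 from 0.0446 and 0.0810 CPM to 10.4 and 14.3 CPM and ZEB1 from 0.647 and 0.445 CPM to 4.35 and 3.53 CPM. Neither change differed detectably from that of WT (differences 0.18, SE 0.91, adjusted p = 0.911 for ZEB2 and 0.53, SE 0.49, adjusted p = 0.479 for ZEB1). COL1A2, a fibrillar collagen chain, fell in ZNF503 shRNA cells from 59.8 and 61.1 CPM to 31.9 and 29.99 CPM and rose in WT from 42.7 and 35.4 CPM to 117 and 125 CPM, a difference of -2.59 (SE 0.31, adjusted p = 1.25e-05). TGFB2, a TGFβ ligand, fell from 6.49 and 7.81 CPM to 2.86 and 2.64 CPM, where WT had 0.0666 and 0.386 CPM at day 2, a difference of 4.14 (SE 0.53, adjusted p = 2.71e-05). Without WT day 2 replicate 1 it was 3.05 and without WT day 2 replicate 2 5.53.

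Genes of sterol synthesis fell. Of 24 genes of sterol synthesis and uptake 22 fell and none rose, all 24 had values below 0, and the median log2 change was -1.03. HMGCS1, an early enzyme of the pathway, had 841 and 882 CPM at day 0 and 280.1 and 299.8 CPM at day 2, a log2 change of -1.58 (SE 0.12, adjusted p = 1.84e-07). INSIG1, which restrains the pathway, had 95.7 and 96.3 CPM at day 0 and 33.2 and 29.5 CPM at day 2. In both genes the day 2 libraries were below 40% of either day 0 library. SREBF2, the transcription factor that controls the pathway, and INSIG1 fell by 0.94 and 1.62 on the log2 scale. In WT 22 genes of the list fell as well, with a median of -0.69. Past 5% the change was more negative than in WT for 10 genes and less negative for 1, PMVK. Over all genes 11.4% had a more negative and 13.6% a more positive change than in WT. The differences were -0.58 (SE 0.13, adjusted p = 0.00335) for HMGCS1 and -0.97 (SE 0.18, adjusted p = 0.000796) for SREBF2, which held its level in WT (125 and 126 CPM at day 0 and 119 and 139 CPM at day 2).

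Of 24 glycolysis genes 19 fell (background 16.7%) and 1 rose (background 14.9%), with a median of -0.58 (-0.47 in WT). SLC2A1, the glucose transporter GLUT1, had 159 and 202 CPM at day 0 and 47.5 and 36.6 CPM at day 2, and HK2, which phosphorylates glucose, had 67.9 and 79.5 CPM at day 0 and 17.3 and 19.9 CPM at day 2. Both fell, with log2 changes of -2.10 (SE 0.15, adjusted p = 1.55e-07) and -2.01 (SE 0.14, adjusted p = 1.31e-07). LDHA, which makes lactate, fell by 0.81 on the log2 scale. PDK1, the kinase that inhibits pyruvate dehydrogenase, was the 1 riser, from 88.1 and 103 CPM to 390.3 and 442 CPM. The medium of this stage lacked insulin, and of 18 genes of insulin and FOXO response IRS2, PDK4, TXNIP, CCNG2 and SESN3 rose and TRIB3, FBXO32, DDIT4, IGFBP2 and IGFBP5 fell. TXNIP, which limits glucose uptake, rose from 18.5 and 31.6 CPM to 140.5 and 127 CPM, and WT had 6.75 and 8.98 CPM at day 0 and 184 and 175 CPM at day 2, a difference of -2.10 (SE 0.25, adjusted p = 1.27e-05). IGFBP5, an IGF-binding protein, and DDIT4, an inhibitor of mTORC1, fell by 3.60 and 1.73 on the log2 scale. DDIT4 had 31.4 and 36.8 CPM at day 0 and 31.2 and 43.0 CPM at day 2 in WT, and the difference was -1.84 (SE 0.41, adjusted p = 0.00343).

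**Figure D3:**
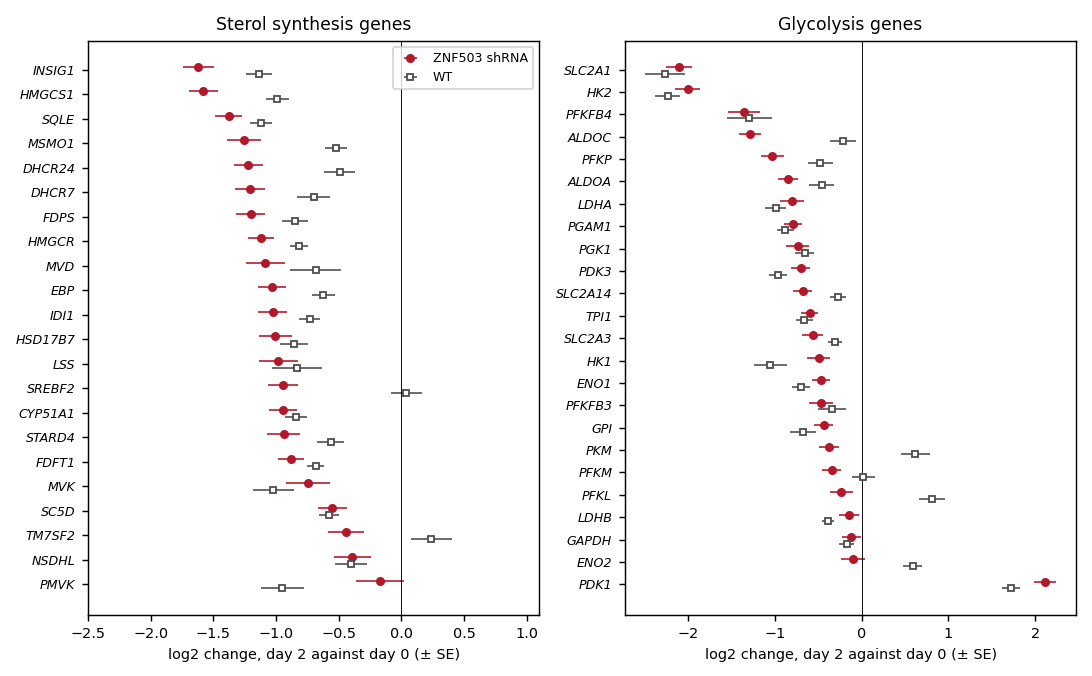
Log2 change from day 0 to day 2 (points, with SE bars) of 22 of the 24 sterol synthesis genes and of the 24 glycolysis genes, in ZNF503 shRNA cells (red circles) and in WT (open grey squares), sorted by the change in ZNF503 shRNA cells. The sterol genes drawn all lie left of 0 in ZNF503 shRNA cells, with INSIG1 at -1.62 and HMGCS1 at -1.58, and PDK1 is far to the right among the glycolysis genes.

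Most cell cycle genes fell. Of 29 tested 17 fell (background 16.7%) and CDK4, CDKN2B and BUB1 rose (background 14.9%), with a median of -0.37 against -0.76 in WT. Cyclin D3 (CCND3) fell from 24.4 and 19.8 CPM to 5.11 and 6.68 CPM. BUB1, a spindle checkpoint kinase, rose from 233 and 250.2 CPM to 457 and 502 CPM. MCM4, a subunit of the replicative helicase, had 409 and 418 CPM at day 0 and 438 and 446 CPM at day 2 and did not pass 5% (adjusted p = 0.552), while WT dropped from 579.9 and 583 CPM to 259.7 and 279 CPM. The difference was 1.21 (SE 0.10, adjusted p = 4.17e-07). Of 27 stress and interferon genes 8 rose (background 14.9%) and 6 fell (background 16.7%). IFIT2, an interferon-induced gene, rose from 0 and 0.0270 CPM, 2 counts, to 6.52 and 7.86 CPM, and reached 18.2 and 17.4 CPM in WT. The p53 target CDKN1A fell from 12.8 and 15.7 CPM to 6.87 and 6.03 CPM, and BTG2, another, rose from 3.39 and 4.49 CPM to 17.1 and 16.1 CPM, with a difference of -2.08 (SE 0.33, adjusted p = 0.000216) from WT.

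Of 6 genes of the TLE family, which holds corepressors of the NET proteins, TLE1, TLE2 and TLE5 fell and the other 3 did not pass 5%. Members of the family need not all act as corepressors, and what each does in these cells was not tested. Over all genes 16.7% fell and 14.9% rose, so the lack of a riser among 6 genes is near background. TLE2 had 7.61 and 5.18 CPM at day 0 and 2.28 and 1.84 CPM at day 2, a log2 change of -1.59 (SE 0.22, adjusted p = 8.32e-05), and TLE5 had 146 and 143 CPM at day 0 and 98.8 and 102 CPM at day 2, a log2 change of -0.53 (SE 0.10, adjusted p = 0.00106). In WT both genes rose, TLE2 from 4.98 and 4.15 CPM to 15.6 and 13.8 CPM and TLE5 from 126 and 129 CPM to 189 and 202 CPM. The differences were -3.27 (SE 0.29, adjusted p = 8.22e-07) and -1.15 (SE 0.15, adjusted p = 2.59e-05). TLE1 fell in both lines, by 0.93 in ZNF503 shRNA cells. Of the 6 differences from WT 4 were negative past 5%, those of TLE2, TLE3, TLE4 and TLE5, and 1 was positive, that of TLE1. The shares over all genes were 11.4% negative and 13.6% positive.

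The change from day 0 to day 2 was tested against that of WT in 1 fit over all 16 libraries of these days. It differed for 589 of 17345 genes (3.40%), 220 of which (1.27%) were more positive and 369 (2.13%) more negative in ZNF503 shRNA cells. In the same fit WT had 1598 called genes (9.21%), 1008 higher (5.81%) and 590 lower (3.40%), and 53.7% of genes passed 5% FDR. Over those 1008 genes the median log2 change was 3.07 in WT and 1.56 in ZNF503 shRNA cells, and over the 590 genes it was -2.84 and -1.37. Of the genes called in the separate fit of the ZNF503 shRNA line, 387 called higher and 266 called lower were also tested in the fit with WT. Over the 387 genes the median in the fit with WT was 3.53 in WT and 3.02 in ZNF503 shRNA cells. Over the 266 genes it was -2.41 and -2.44. A set drawn on the change of 1 line favours a larger median in that line. Of the 369 genes with a more negative change 258 were called higher in WT, and of the 220 with a more positive change 148 were called lower in WT. These sets were drawn on the same libraries and the medians are a description with no test.

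**Figure D4:**
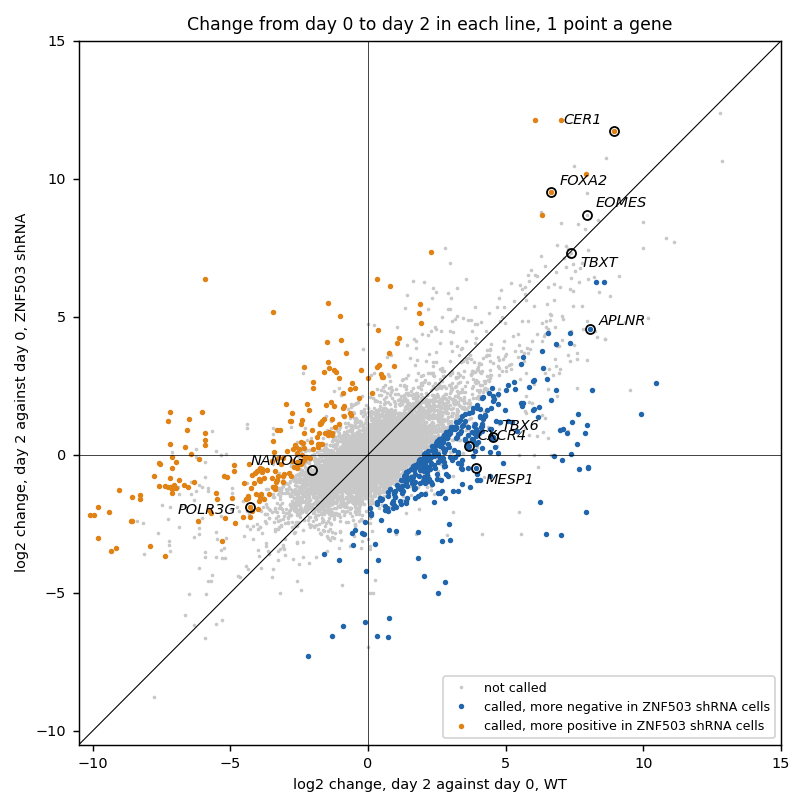
Log2 change from day 0 to day 2 in ZNF503 shRNA cells (vertical axis) and in WT (horizontal axis), 1 point a gene, from the fit of all 16 libraries of these days, with the diagonal of equal change. Genes called different are blue where the change was more negative and orange where it was more positive in ZNF503 shRNA cells; MESP1, TBX6 and CXCR4 lie near 0 on the vertical axis and above 3 on the horizontal axis, while TBXT lies on the diagonal.

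Against the mean change of WT, NKX2-5 shRNA and ZEB2 shRNA cells, a reference that shares the WT libraries, 716 genes (4.13%) differed, 359 (2.07%) more positive and 357 (2.06%) more negative. PDGFRA at day 2 was at 556 and 527 CPM in NKX2-5 shRNA cells and 436 and 441 CPM in ZEB2 shRNA cells, all more than 10 times the 33.8 and 40.4 CPM of ZNF503 shRNA cells. CXCR4 was at 132 and 141 CPM and 73.0 and 74.7 CPM in those lines, against 2.98 and 2.87 CPM. The changes of ZNF503 shRNA cells differed from the mean of the other lines by -2.42 (SE 0.12, adjusted p = 4.41e-10) for PDGFRA and -3.50 (SE 0.22, adjusted p = 5.49e-09) for CXCR4. MESP1 had another order, since at day 2 it was low in NKX2-5 shRNA cells too, at 0.232 and 0.256 CPM, and high in ZEB2 shRNA cells, at 7.54 and 11.9 CPM. APLNR was at 10.6 and 13.3 CPM in NKX2-5 shRNA cells, between ZNF503 shRNA cells and WT, and at 78.3 and 114 CPM in ZEB2 shRNA cells. LHX1 was at 307 and 354 CPM and 305 and 351 CPM in these lines, near its level in WT.

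NANOG and POLR3G were higher at day 2 than in each of the 3 other lines. NANOG was at 48.8 and 49.0 CPM in NKX2-5 shRNA cells and 54.2 and 48.8 CPM in ZEB2 shRNA cells, below both ZNF503 shRNA libraries. POLR3G was at 29.2 and 29.6 CPM and 36.1 and 29.3 CPM. The differences from the mean of the other lines were 1.38 (SE 0.09, adjusted p = 9.72e-09) for NANOG and 2.23 (SE 0.14, adjusted p = 3.81e-09) for POLR3G. TLE2, at 15.5 and 15.1 CPM and 17.5 and 19.9 CPM at day 2 in NKX2-5 shRNA and ZEB2 shRNA cells, and the sterol gene HMGCS1, at 518 and 475 CPM and 513 and 463 CPM, were lower in both ZNF503 shRNA libraries than in any library of the other lines at day 2. Their differences were -2.92 (SE 0.24, adjusted p = 1.08e-07) and -0.76 (SE 0.11, adjusted p = 2.78e-05). Past 5%, 14 of 24 sterol genes had a more negative change than the mean of the other lines and none a more positive one, and over all genes tested 15.8% were more negative.

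The 5 most negative differences, among genes with a mean of at least 1 CPM in one group, were those of TSHR, WNT3A, POTED, BRDT and RELN. RELN, an extracellular matrix glycoprotein, had 0.335 and 0.310 CPM at day 0 and 0.793 and 0.941 CPM at day 2, higher at day 2 in both libraries, while WT went from 0.237 and 0.312 CPM to 19.7 and 20.6 CPM. The difference was -4.80 (SE 0.55, adjusted p = 8.9e-06). TSHR, the thyrotropin receptor, had 2 and 0 counts at day 0 and 6 and 0 counts at day 2, against 2.46 and 2.57 CPM in WT at day 2 and no count there at day 0. BRDT, a bromodomain gene of the testis, and POTED, a member of a family of near-identical copies whose reads could be split, were at or below 0.134 CPM in all 4 ZNF503 shRNA libraries and at 1.23 and 1.29 CPM and 0.932 and 1.61 CPM in WT at day 2. Adjusted p were 0.0238 for TSHR, 0.000452 for WNT3A, 0.0119 for POTED, 0.00836 for BRDT and 8.9e-06 for RELN. Without day 0 replicate 1 of ZNF503 shRNA cells TSHR (adjusted p = 1, also with the smallest row of a gene) and POTED (0.185) were not called, and BRDT was not called without day 0 replicate 2 (0.106).

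The 5 most positive differences were those of JAKMIP2-AS1, CDH6, SEMG1, CCDC172 and POSTN, all without a count in WT at day 2. CDH6, a cadherin, had 5.38 and 4.18 CPM at day 0 and 1.03 and 1.37 CPM at day 2, lower at day 2 (log2 change -2.09, SE 0.18, adjusted p = 1.16e-06), and WT started at 8.54 and 6.98 CPM. At day 2 ZNF503 shRNA cells held at least 18.2-fold more than WT. JAKMIP2-AS1, an antisense RNA whose strand of counting is not known, had 10.3 and 10.2 CPM at day 0 and 4.48 and 2.87 CPM at day 2, and its day 2 level was at least 55.8-fold that of WT. For SEMG1, CCDC172 and POSTN, an extracellular matrix protein, the bounds were 7.81, 7.50 and 2.11. Adjusted p for the differences were 7.19e-07 for JAKMIP2-AS1, 1.37e-05 for CDH6, 0.00106 for SEMG1, 0.000802 for CCDC172 and 0.00469 for POSTN.

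In the fit of all 16 libraries 2.74% of genes were called higher and 1.75% lower in ZNF503 shRNA cells. With ZNF503 shRNA calls from the fit of that line and WT calls from the fit of 16 libraries, 4 genes were called in opposite directions. These were CDKN2B, CST1, GPR78 and SLC25A2, which were picked after their values were seen and are all below 3 CPM. CDKN2B, an inhibitor of CDK4 and CDK6, had no count at day 0 and 0.246 and 0.141 CPM at day 2 in ZNF503 shRNA cells, whereas WT had 0.105 and 0.208 CPM at day 0 and no count at day 2. CST1, a secreted cystatin, had 0.0446 and 0.0405 CPM at day 0 and 0.301 and 0.659 CPM at day 2 in ZNF503 shRNA cells and 2.85 and 2.96 CPM at day 0 and 0.533 and 0.643 CPM at day 2 in WT. GPR78, an orphan receptor, had 0.335 and 0.459 CPM at day 0 and 0.0558 and 0 CPM at day 2, where WT had 0.105 and 0.104 CPM at day 0 and 0.666 and 0.707 CPM at day 2. SLC25A2, a mitochondrial ornithine carrier, had 0.0446 and 0.0135 CPM at day 0 and 0.112 and 0.330 CPM at day 2 and in WT 0.211 and 0.519 CPM at day 0 and 0.0666 and 0.129 CPM at day 2. The differences of the changes were 5.51 (SE 0.75, adjusted p = 5.46e-05) for CST1 and -5.81 (SE 0.86, adjusted p = 0.000119) for GPR78, and for SLC25A2, with 3 counts in all at day 0, the adjusted p was 0.0143. Leaving out day 2 replicate 1 of ZNF503 shRNA cells moved the CST1 difference to 6.21. The GPR78 difference went to -9.87, which gives no size, since the day 2 library that was left had no count. The change of SLC25A2 in ZNF503 shRNA cells had an adjusted p of 0.0738, and of 0.138, 0.392 and 0.292 without day 0 replicate 1, day 0 replicate 2 or day 2 replicate 2. For CDKN2B, with adjusted p = 0.00256, no size is given, since a group of each line is at 0.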

How the data were processed

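RNA of H1 cells was sequenced by the authors from stranded libraries of total RNA, read in pairs, aligned to hg19 (GRCh37) with 1 best hit per read (TopHat2 2.0.14, Bowtie2 2.2.1.0 and SAMtools 0.1.19.0 in the submitters' processing notes) and counted per RefSeq gene region with RSeQC. The deposited values are raw counts, 1 row per RefSeq accession, and the strand setting of the counting is not given in the sources used here. Of 41627 accessions 40285 (96.8%) were matched to a symbol, and each of 23189 symbols, 7913 of which had more than 1 row, was represented by its row of highest summed counts. Rows without a symbol were left out. They held 3.0 to 3.6% of the counts in the ZNF503 shRNA libraries of day 0 and day 2. Over all libraries of the fits they held 2.29 to 3.63%. The 4 day 10 columns, with 1077 rows more than the others (42704 in all), were not used.

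Genes were filtered with filterByExpr, scaled with TMM and tested with edgeR 4.0.16 (glmQLFit and glmQLFTest, R 4.3.3) and Benjamini-Hochberg adjustment. The change in ZNF503 shRNA cells was fitted on the day 0, day 2 and day 6 libraries of that line, and the comparisons with WT and with the mean of the other lines on all 16 libraries of days 0 and 2. Calls ask for a 4-fold change and 10% FDR, and "rose" and "fell" in gene lists for 5% FDR. SE is the log2 change over the root of F. Named are ZNF503, members of 20 lists (533 genes) that carry the account of their list, the 10 largest rises and falls, and the 5 most positive and negative differences from WT, with CPM minima as given. The members and lists were chosen with earlier results of these data known. Folds against a group at 0 use 3 counts over both libraries as a floor, and ratios from 1 to 3 counts have exact 95% intervals. Promoters are from RefSeq tables of GRCh38.p14, which held 12770 of the 16809 genes tested. The fits were tested on simulated data. Alternatives were DESeq2 1.42.0, its size factors, no TMM factors, other filters, the smallest row of a gene, other sets of libraries, a replicate block and each library left out. Values of some list members are not reported here.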

Additional observations from a re-analysis of the deposited data

Results flagged for a closer look

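Differences between the change in ZNF503 shRNA cells and that in WT are set out here where the test of the difference itself (edgeR's quasi-likelihood test, 4-fold and 10% FDR) called them. Values are log2 differences, ZNF503 shRNA minus WT.

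Among mesoderm genes they were -4.40 for MESP1, -3.89 for TBX6, -3.49 for APLNR, -3.33 for CXCR4 and -2.55 for PDGFRA. Of the streak genes LHX1 had -2.29, while CER1 had 2.82, FOXA2 2.90, SP5 2.25, FGF8 2.14 and FGF1 3.58, which was not called in 5 of 8 fits with 1 library left out. Of endoderm and cardiac genes PRDM1 had -3.34, HHEX -2.05, TBX20 -2.66, MYL7 3.34 and GATA6 5.11, the last against a group at 0 counts. The NODAL inhibitors LEFTY1 and LEFTY2 had 2.88 and 2.89.

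Other genes of the lists with a called difference were POLR3G (2.39), TEK (3.33), TGFB2 (4.14), COL1A2 (-2.59), TLE2 (-3.27), BTG2 (-2.08) and TXNIP (-2.10). For CDKN2B the fitted value was 12.30, with a group of each line at 0 counts, and gives no size. Among the most extreme differences the fitted values were -8.43 for TSHR, -7.87 for WNT3A, -5.19 for POTED, -4.86 for BRDT, -4.80 for RELN, 10.62 for JAKMIP2-AS1, 9.48 for CDH6, 7.92 for SEMG1, 7.90 for CCDC172 and 7.78 for POSTN. All but RELN, POTED and BRDT of these rest on a group at 0 counts, so these fitted values are no bounds. CST1, GPR78 and SLC25A2, with opposite directions in the lines, had 5.51, -5.81 and 4.65.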

How the results depend on the processing

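Counts of called genes stayed within 1.5 times their reported values under every alternative that kept the 4-fold threshold. For the change in ZNF503 shRNA cells they ran from 492 with a filter of 1 CPM to 818 with no filter, with DESeq2 at 649, and from 630 to 765 with 1 library left out. The difference from WT gave 436 and 604 under those filters, 563 with DESeq2 and 533 to 604 with 1 library left out, and the difference from the other lines 485 and 778, 699 and 694 to 793, where leaving out each library of the other lines was added after seeing the data. At 5% FDR with no fold threshold they were 5317, 4332 and 5967. Without day 2 replicate 1 of ZNF503 shRNA cells the share of higher genes among calls was 51.0% against 59.4%, for the difference from WT 29.1% against 37.4%, and for that from the other lines 39.9% against 50.1%. No TMM scaling moved the median of all genes by 0.0314 for the change and by -0.096 for the difference from WT. Replicate numbers did not pair the samples, since the deviations of same-numbered libraries correlated at -0.0291 between days 0 and 2 and at 0.0916 and 0.0071 with day 6. With the number as a replicate block 694, 580 and 715 genes were called, 655, 568 and 698 of them also called without the block.

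Some directions turned, also of medians away from 0 (-0.77 for trophoblast, 0.48 for endothelium and blood and -0.32 for neural genes) and of MESP1 (-0.50), and the cause was not tested. The cardiac median was -0.17 with the replicate block and -0.22 with 4 libraries, the neural median 0.01964 with no filter, that of endothelium and blood -0.19 with the 1 CPM filter and that of stress and interferon 0.01914 with 16 libraries. With 1 library left out, medians ran from -0.0359 to 0.0885 for stress and interferon, -0.87 to 0.14 for trophoblast and -0.0496 to 0.21 for the BMP pathway. Changes ran from -0.91 to 0.0107 for MESP1, -0.0316 to 0.66 for CXCR4 and -0.0883 to 0.00346 for FGF2. Differences from WT ran from -0.27 to 0.17 for TBXT, -0.54 to 3.20 for SOX17 and -5.34 to 1.15 for ZEB2, and that of TBXT was 0.007034 with the smallest row.

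Of 114 named genes with a tested change, 7 near 4-fold (BTG2, CCDC172, CDH6, HK2, NODAL, SLC2A1 and SOX3) dropped below 4-fold without 1 library and stayed past 5%, and 15 of low level or few counts moved by over 1.5-fold (APLNR, CDKN2B, CST1, DKK1, DKK4, DPPA3, FGF1, GATA4, GPR78, IFIT2, IGFBP5, MEGF11, MYL7, SNAI2 and SOX17). Of 63 differences from WT, 11 left the call, of which BTG2, FGF8, HHEX, LHX1 and TXNIP stayed past 5% for at least 1 such library, and 13 moved by over 1.5-fold (APLNR, BRDT, CDKN2B, CST1, FOXA2, GPR78, MYL7, POSTN, POTED, SLC25A2, SP5, TGFB2 and TSHR). Depth limits genes below about 0.1 CPM, where a library of day 2 can hold no count, and with 2 libraries a group the spread is estimated over all genes.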
